A study of Mus musculus with 10 samples.

Results

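The comparison described here set all 5 libraries of one mast cell population, B7hi, against all 5 of the other, B7low, with the intranasal challenge as a covariate, over every gene in the count table. It used 10 of the 10 libraries of the series and tested 10533 genes. Bulk RNA-seq libraries had been made from mast cells sorted from the lower airway of wild type C57BL/6 mice aged 5 to 7 weeks. The groups were B7hi after saline (n = 2), B7low after saline (n = 2), B7hi (n = 3) and B7low (n = 3) after house dust mite extract (HDM). Saline mice had received 20 µL of saline into the nose and HDM mice 20 µL with 3 µg of extract, given 2 times a week for 3 weeks. The extract is an allergen preparation used to elicit airway inflammation. All mice were wild type, so challenge and sorted population were the labelled differences. B7 is integrin β7 in the published use of these names, and the series title calls the cells inducible and constitutive mast cells, the β7-high and β7-low populations. No label ties a replicate to its own mouse or to a pool of mice, so the p-values reflect variation among libraries, some of which may be technical.

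Mast cells are tissue-resident immune cells that store proteases, heparin and amines in granules and release them when IgE receptors or other receptors are engaged. Constitutive, or connective tissue type, mast cells are seeded early, renew slowly and carry chymases, tryptases and Mas-related receptors. Inducible, or mucosal type, mast cells arise from circulating progenitors that enter the airway through integrins α4β7 and α4β1, and carry αEβ7 when they lodge in epithelium.

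Total counts ran from 525983 to 1725818 per library, which puts 3 counts at 1.74 to 5.70 CPM, the usual unit of counts scaled to a common library total. With saline, both B7hi libraries were deeper than both B7low libraries, and with HDM the depths overlapped. All levels are CPM computed on library sizes scaled by TMM, a trimmed mean of gene ratios. Values of 5 libraries are in the order saline 1, saline 2, HDM 1, HDM 2, HDM 3. Both populations carried mast cell transcripts, among them the IgE receptor chain Ms4a2 (766 to 926 CPM in B7hi and 640.4 to 1129.5 CPM in B7low) and the stem cell factor receptor Kit (2693 to 5488 CPM in B7hi and 3829.7 to 5642 CPM in B7low). Neither differed past the threshold (log2 fold changes −0.13 and −0.40, adjusted p = 0.73 and 0.28). Itgb7, the transcript of the sorting marker, stood at 341 to 1011 CPM in B7hi and 550.3 to 919 CPM in B7low, with a log2 fold change of 0.08 ± 0.25 (SE here and below, adjusted p = 0.90). Markers of other cells were low and uneven. Summed B cell markers were 687, 457 and 85.3 CPM in B7low HDM 1 to 3 and at most 82.0 CPM in any other library. Summed T cell and innate lymphoid markers were 292 CPM in B7hi saline 2 and 240.4 CPM in B7hi HDM 3, against 68.9 to 141 CPM elsewhere. Il7r was part of this sum in every library, at 22.1 to 96.2 CPM. Summed endothelial markers reached 820 CPM in B7low HDM 1 and 59.4 to 241 CPM elsewhere. Summed macrophage, monocyte and dendritic cell markers were 473 to 846 CPM in B7hi and 343 to 603 CPM in B7low, mostly from Cx3cr1 (398 to 790.0 CPM in B7hi and 323 to 543 CPM in B7low), while the macrophage genes C1qa and C1qb had no count. Summed eosinophil markers were 8.13 to 60.7 CPM and 25.4 to 120.4 CPM, with the granule genes Epx and Prg2 at 0 and Il5ra at up to 88.6 CPM. Summed neutrophil markers were 14.4 to 54.8 CPM and 9.48 to 68.6 CPM, with S100a8 at 0 and Cxcr2 at up to 54.2 CPM. The part of these cells in the results was not tested.

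In the fit over both challenges, called the joint fit below, the populations differed at 927 genes (edgeR quasi-likelihood test, Benjamini-Hochberg adjusted p under 0.05), 8.8% of those tested, with 389 higher in B7hi (3.69%) and 538 lower (5.11%). Among the genes higher in B7hi, the median log2 fold change was 0.99, and 197 of 389 (50.6%) were at 1 or below. Among the lower genes the median was −1.85, 98 of 538 (18.2%) were at a size of 1 or below and 250 (46.5%) exceeded 2. Past a size of 4, 3 genes were higher and 87 lower. The median over all tested genes was 0.02. The CPM ranges of the populations did not overlap for 289 of the 389 higher genes and 402 of the 538 lower ones. Of all tested genes, 4.46% did not overlap with B7hi higher and 4.94% with B7hi lower, 9.4% in all. A value in brackets after a gene is its log2 fold change, B7hi over B7low. The calls were made on the same values, so nothing is read from this gap. Leaving out 1 library took the higher count down to 203 without B7hi saline 1 or B7low saline 1, 228 without B7hi HDM 3 or B7low HDM 1 and 229 without B7hi saline 2, each with fewer libraries to test. Without both B7low saline 2 and B7hi HDM 2, which the second principal component set apart, 244 genes were higher and 482 lower.

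**Figure D1:**
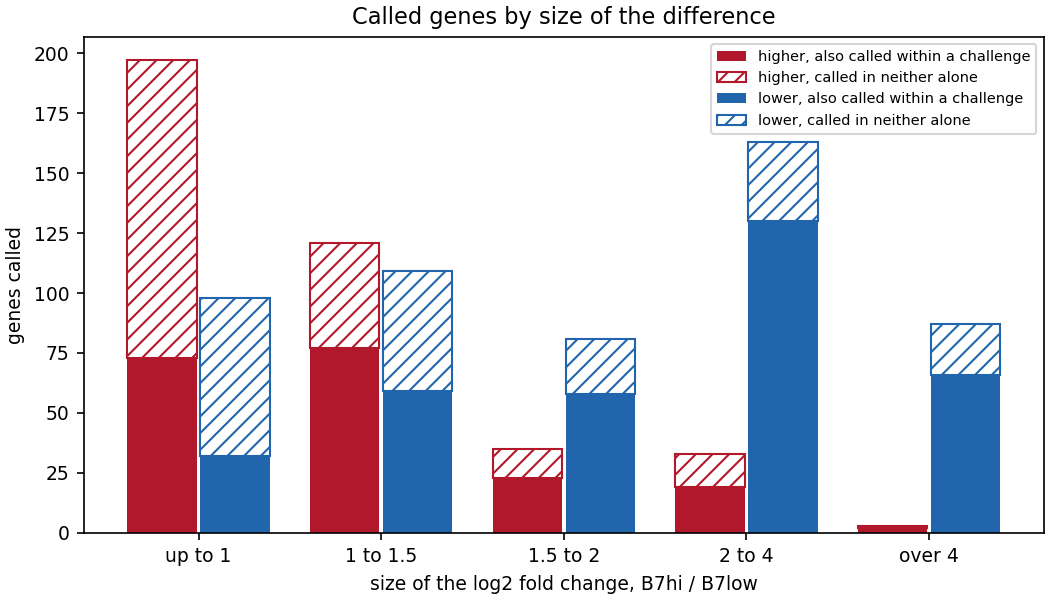
Number of genes called higher (red) or lower (blue) in B7hi, by the size of the log2 fold change from the fit over both challenges. Hatched parts are genes called within neither challenge alone, and higher genes were most frequent at sizes up to 1 (197 genes) and lower genes at sizes of 2 to 4 (163 genes).

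Setting 5 libraries against 5 resolved 388 genes (3.68% of those tested) that passed the threshold within neither challenge when each was tested in a fit with 1 mean per group. They made up 195 of the 389 higher genes (50.1%) and 193 of the 538 lower genes (35.9%). Their median log2 fold change was 0.91 for the higher genes, a 1.87-fold difference, and −1.24 for the lower ones. Of the higher genes called in both fits, 125 were called with saline alone, 31 with HDM alone and 38 with each. For lower genes these counts were 130, 37 and 178. The gain ran the other way too, since 218 of the 689 genes called with saline (6.54% of those tested) and 15 of the 299 called with HDM (2.84%) did not pass in the joint fit. The count of 388 was 225 without B7low HDM 1, 226 without B7low saline 1 and 237 without B7hi HDM 3.

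The saline and HDM libraries are separate samples, so each challenge gave a reading of genes called in the other, though the fit shares its estimate of spread. Of 306 genes higher with saline (2.91% of those tested), 270 (88.2%) had a positive fold change with HDM, as did 52.0% of all tested genes. Their median log2 fold change was 1.86 with saline, which chose them, and 0.58 with HDM. Of 383 genes lower with saline (3.64%), 367 (95.8%) were negative with HDM, with medians of −2.76 and −1.50. Of the genes called with HDM, 71 of 73 higher (0.693% of those tested) and 221 of 226 lower (2.15%) kept their sign with saline (97.3% and 97.8%), and their medians of 1.10 and −2.49 became 1.08 and −2.98. No gene passed the test of a population effect that differed between challenges with edgeR (0 of 10533), while 901 (8.55%) had an unadjusted p under 0.05, 58 of them among the higher and 63 among the lower genes. DESeq2 called 44 such genes and limma-voom 0. Among the 388 genes called in neither challenge alone, 0 had an unadjusted p under 0.05 for that difference in edgeR. The joint fit chose these 388 on the same libraries, so this count is partly fixed by the choice.

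**Figure D2:**
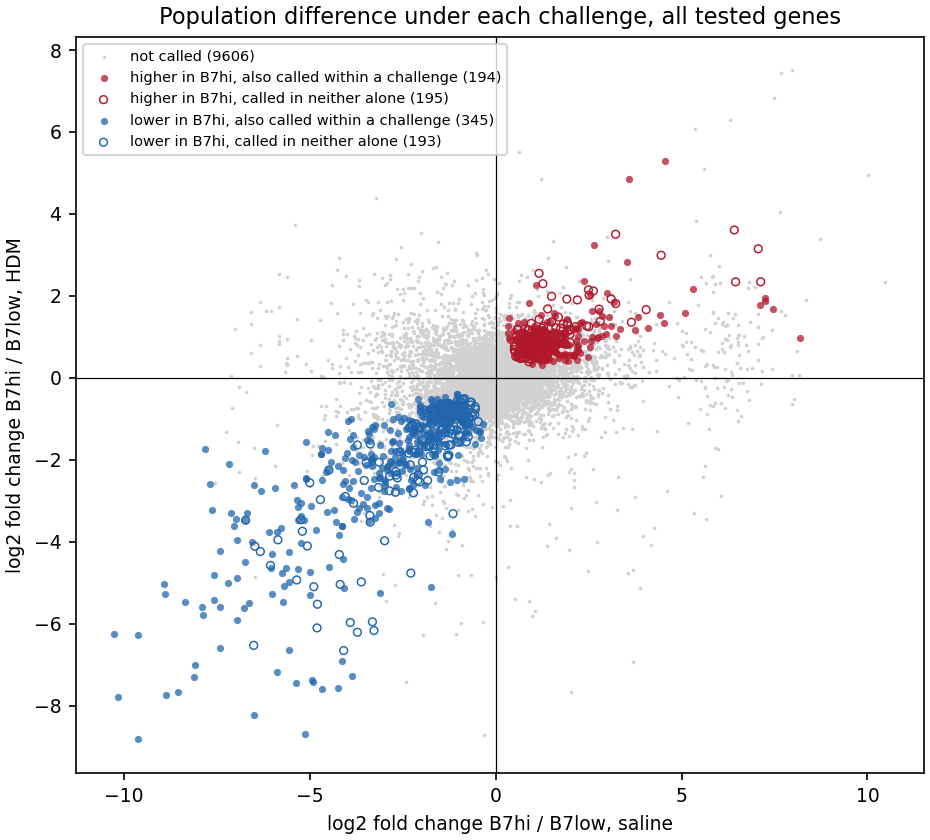
Log2 fold change of B7hi over B7low with saline (x axis) and with HDM (y axis) for every tested gene, with filled points called in the joint fit and within a challenge, open points within neither alone, and grey points not called in the joint fit. The grey points include 218 genes called with saline and 15 called with HDM. The 195 open red points gather near 1 on both axes, and genes called in the joint fit lie mostly in the lower left and upper right parts of the plot. The joint fit pools both challenges, so this placing is partly fixed by the choice.

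Of the higher genes with at least 20 CPM in B7hi and no overlap, Itgae had the largest difference. It encodes αE, which pairs with β7 to bind E-cadherin on epithelium (chromosome 11, 73090583 to 73147446, plus strand, GRCm38). Itgae was at 71.8, 172, 534, 427 and 278 CPM in B7hi and 0, 10.03, 9.49, 21.5 and 0 CPM in B7low. Every B7hi library exceeded every B7low library, which its choice required, and the log2 fold change was 5.14 ± 0.78 (adjusted p = 0.0042). The challenges alone gave 4.56 with saline (adjusted p = 0.12) and 5.30 with HDM (adjusted p = 0.035). Itga4, the α4 chain that pairs with β7 for entry into tissue (chromosome 2, 79255426 to 79333123, plus strand), stood at 944, 983, 313, 659.6 and 726 CPM in B7hi and 75.2, 167, 107, 127 and 167 CPM in B7low. The lowest B7hi value was in HDM 1, and the ranges did not overlap, which the choice of Itga4 required. Its log2 fold change was 2.43 ± 0.29 (adjusted p = 8.6e-05). Both α partners of β7 were higher in B7hi while the β7 transcript did not differ past the threshold.

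Pdgfrb, the receptor for platelet-derived growth factor B, had log2 fold changes of 2.38 with saline (adjusted p = 0.013) and 2.38 with HDM (adjusted p = 0.0034). Its levels were 107, 81.4, 46.9, 112 and 95.2 CPM in B7hi and 12.2, 23.4, 6.78, 19.5 and 18.96 CPM in B7low, with no overlap, which its choice required. Tnfrsf9, the costimulatory receptor 4-1BB, had 24.2, 9.40, 45.003, 5.87 and 17.8 CPM in B7hi and 3.497, 1.67, 4.07, 2.602 and 1.26 CPM in B7low, a log2 fold change of 3.05 ± 0.62 (adjusted p = 0.0051) that passed with HDM alone but not with saline alone. Icos, a costimulatory receptor best known on T cells, was at 44.6, 36.5, 10.6, 27.4 and 22.6 CPM in B7hi and 1.75, 5.02, 0, 0.650 and 6.32 CPM in B7low (3.08, adjusted p = 0.0031). The summed T cell and innate lymphoid markers were 76.3, 292, 78.1, 141 and 240.4 CPM in B7hi and 138, 83.6, 88.1, 68.9 and 95.4 CPM in B7low. Il7r was in both sums, at 25.3 to 62.6 CPM in B7hi and 22.1 to 96.2 CPM in B7low. Cd3g was at 0, 37.1, 0.625, 3.91 and 29.5 CPM in B7hi and had no count in B7low. Lck was at 1.51, 86.1, 2.50, 9.79 and 58.2 CPM in B7hi and at most 4.55 CPM in B7low. Neither Cd3g nor Lck passed. Cd4 was at most 3.13 CPM in B7hi and reached 13.6 CPM in B7low HDM 1. Of the 10 tested genes of that list, 1 was higher (10%) and 0 lower, against 3.69% and 5.11% of all tested genes. The higher one was the T cell kinase gene Zap70, at 3.02, 24.5, 2.500, 11.7 and 21.2 CPM in B7hi and 0, 0, 0, 3.25 and 0 CPM in B7low (3.72, adjusted p = 0.035). Zap70 was highest in the same libraries as the marker sum, and lost its call when any 1 of 7 libraries was left out (adjusted p of 0.051 to 0.15). Zbtb16, which encodes the transcription factor PLZF of innate-like lymphocytes, ranged over 15.7 to 26.5 CPM in B7hi and 0 to 8.36 CPM in B7low, with a log2 fold change of 2.19 ± 0.52 (adjusted p = 0.014) that neither challenge alone resolved. The part of T cells or innate lymphoid cells in these values was not tested. In bulk libraries, fewer cells of a type and less RNA per cell cannot be told apart.

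Among other large differences, Mcpt8 encodes a serine protease known best from basophils (chromosome 14, 56082166 to 56085273, minus strand). It was at 837, 691, 821, 1288 and 1552 CPM in B7hi and 57.7, 189, 82.7, 368 and 383 CPM in B7low (2.32, adjusted p = 0.0096). All B7hi libraries were higher, which its choice required. It passed within neither challenge alone. The other basophil-associated protease, Prss34, went the opposite way, at 2.27, 8.35, 48.1, 11.7 and 25.3 CPM in B7hi and 549, 532, 390.4, 548 and 528 CPM in B7low (−4.85, adjusted p = 4.8e-04). Of 8 tested basophil markers, 1 was higher and 4 lower, against shares of 3.69% and 5.11% of all tested genes. The 4 became 2 without B7hi saline 2, and the 1 became 2 without B7low saline 1. Their summed level was 2289 to 4053 CPM in B7hi and 1915 to 2990 CPM in B7low. Receptors for a lipid and a metabolite were higher too. Ltb4r1, the leukotriene B4 receptor, ranged over 33.8 to 124 CPM in B7hi and 3.34 to 30.3 CPM in B7low (2.47, adjusted p = 0.025), and lost its call without B7hi HDM 3, B7low saline 1 or B7low saline 2 (adjusted p of 0.052 to 0.075). Sucnr1, the succinate receptor, ranged over 15.7 to 62.6 CPM in B7hi and 0 to 15.05 CPM in B7low (2.09, adjusted p = 0.029), and lost its call when any 1 of 6 libraries was left out, which were every HDM library but B7hi HDM 1, and B7hi saline 1. Rasgef1b, a guanine nucleotide exchange factor for RAP proteins, was at 101 to 274 CPM in B7hi and 11.7 to 71.4 CPM in B7low, with a log2 fold change of 3.83 with saline and 1.48 with HDM. Galm, which interconverts the forms of galactose, was at 23.5 to 81.3 CPM in B7hi and 1.67 to 19.6 CPM in B7low and differed by 2.14 ± 0.33 (adjusted p = 5.5e-04). The inflammatory caspase Casp1 ranged over 16.3 to 52.7 CPM in B7hi and 0 to 12.2 CPM in B7low (2.25, adjusted p = 0.013), and was lost with limma-voom (adjusted p = 0.062) and without B7low saline 2 and B7hi HDM 2 (0.084).

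The genes lower in B7hi were led by transcripts with next to no reads there. Such genes passed the count filter through the B7low libraries. Where B7hi held 1 to 3 counts in all, the fold is the ratio of counts per library size with its 95% counting interval, and where it held 0 the fold is a bound at 3 counts over the 5 libraries. These intervals cover counting error only. Stard13, a GTPase-activating protein (chromosome 5, 151037510 to 151233836, minus strand), stood at 0, 0.522, 0, 1.96 and 0 CPM in B7hi and 389.9, 264, 224, 168 and 140.3 CPM in B7low. Its level was 695-fold (interval 192 to 5751) lower in B7hi (adjusted p = 3.4e-09). The complement component C2 (chromosome 17, 34862604 to 34898265, minus strand) had 1 count in 1 B7hi library and 163, 80.3, 97.6, 89.1 and 66.3 CPM in B7low, 616-fold (interval 110.0 to 24393) lower. Fndc8, a fibronectin type III domain protein, had no count in any B7hi library and 41.96, 16.7, 24.4, 9.76 and 15.8 CPM in B7low, at least 41.5-fold lower. The kinase gene Stk32b was 209.9-fold (interval 37.1 to 8345) lower and Lsamp, a neural adhesion protein, 96.2-fold (interval 26.1 to 802) lower. Lsamp was uneven within B7low, at 24.5, 78.6, 29.8, 27.97 and 10.1 CPM. Pcp4l1 was 104-fold (interval 28.4 to 869) lower. All of these genes separated the 5 B7hi from the 5 B7low libraries, which their choice required, so nothing is read from it. Within B7low, Stard13 was higher in both saline libraries than in the HDM libraries, while C2 and Fndc8 overlapped between challenges.

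**Figure D3:**
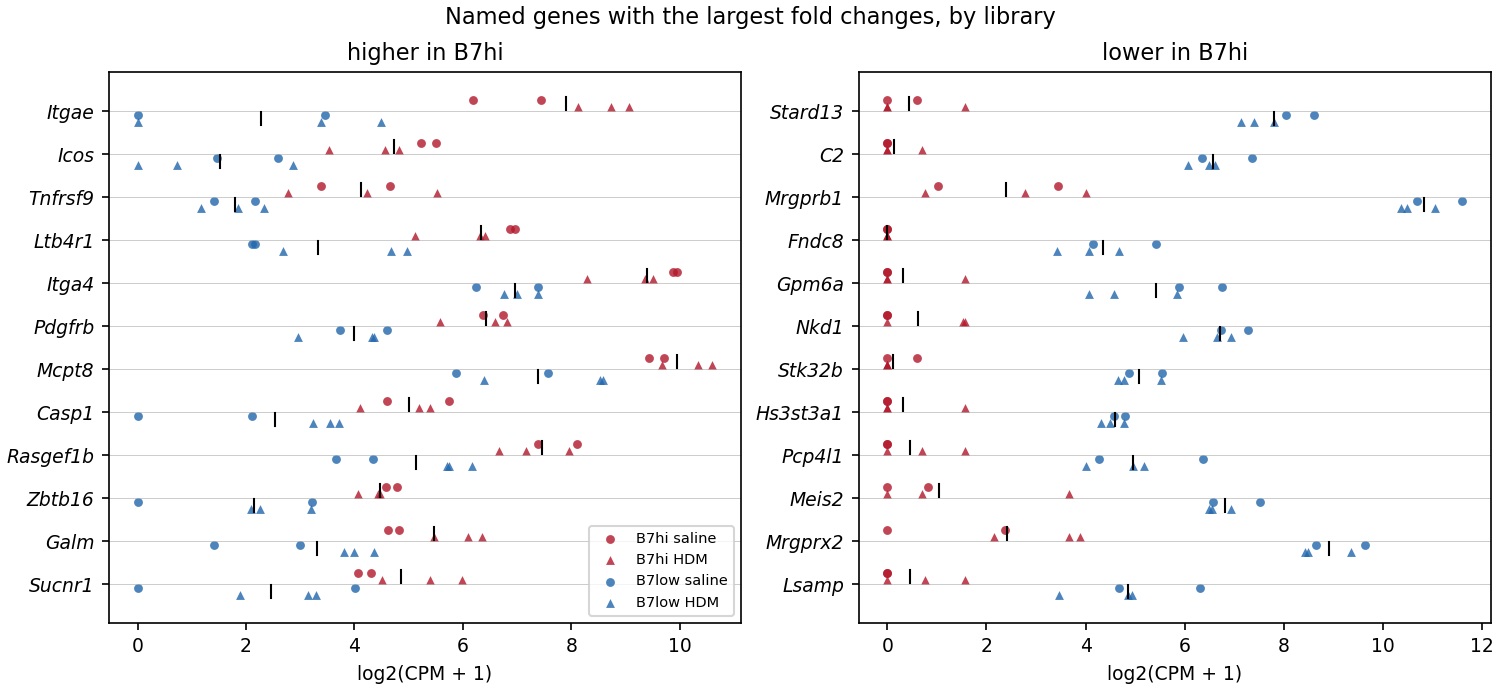
Levels of the genes with the largest differences, as log2(CPM + 1) in each of the 10 libraries, with circles for saline, triangles for HDM, red for B7hi and blue for B7low, and a black bar at each population's mean. The red and blue points of a gene do not overlap, which the choice of these genes required.

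Granule proteases and the Mas-related receptors that mark connective tissue mast cells were lower in B7hi. Mrgprb1, a receptor of that family, was at 9.82, 1.04, 15.001, 5.87 and 0.685 CPM in B7hi and 3100.0, 1655, 2113, 1328 and 1440.1 CPM in B7low (−8.19, adjusted p = 1.0e-04). Mrgprx2, a further member of the family, was at 0, 4.18, 13.8, 11.7 and 3.42 CPM and 797, 401, 659, 344 and 356 CPM (−6.38, adjusted p = 2.0e-04). The chymase Mcpt4 ranged over 90.3 to 363 CPM in B7hi and 5244 to 12288 CPM in B7low, and the chymase Cma1 (chromosome 14, 55941451 to 55944675, minus strand) over 1605 to 6205 CPM in B7hi and 16088 to 34315 CPM in B7low. The log2 fold change of Cma1 was −3.87 with saline and −1.9997 with HDM, and its test of a difference between the challenges gave an adjusted p of 0.22. Of 12 tested genes of this list, 8 were lower (66.7%, against 5.11% of all tested genes) and 0 higher, with a median log2 fold change of −3.26. The other 4 were Mrgprb2, the receptor for basic secretagogues (−3.84, adjusted p = 0.011), the tryptase Tpsb2 (−3.47, adjusted p = 0.019), the adenosine receptor Adora3 (−1.95, adjusted p = 0.0039) and Hdc, which makes histamine (−1.09, adjusted p = 0.021). The count of 8 became 5 without B7hi saline 2 and also without B7low saline 2 and B7hi HDM 2 together. Reads of 25 nt may have been split between close relatives of the Mrgpr and Mcpt families. Of 20 list counts of 3 or fewer, 18 moved by over 1.5 times when 1 library was left out, and such small counts are given for completeness. In the list of mucosal and inducible cell markers, 4 of 13 were higher (Itga4, Itgae, Mcpt8 and Gzmb) and 0 lower, with a median of 1.63. The higher share was 30.8%, against 3.69% of all tested genes. The mucosal proteases Mcpt1 and Mcpt2 did not pass (adjusted p = 0.93 and 0.88). Mcpt1 ranged over 56.7 to 10237 CPM in B7hi and 1.75 to 4826 CPM in B7low, and Mcpt2 over 147 to 10903 CPM in B7hi and 126 to 6856 CPM in B7low. Gzmb, the protease granzyme B, was at 12984, 8924, 8299, 8107 and 8375 CPM in B7hi and 930.2, 2194, 877, 2966 and 5665 CPM in B7low. Its adjusted p of 0.045 rose above 0.05 when any library but B7hi HDM 2, B7low HDM 1 or B7low HDM 3 was left out, up to 0.14.

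The wider mast cell program was partly lower. The list of core identity genes held 30 that were tested, with 9 lower in B7hi (30%), 1 higher (3.33%) and a median of −0.42. The shares of all tested genes were 5.11% lower and 3.69% higher. Slc6a4, the serotonin transporter (chromosome 11, 76998603 to 77032340, plus strand), was at 2.27, 6.26, 7.500, 9.79 and 5.48 CPM in B7hi and 608, 396, 451, 273 and 337 CPM in B7low, a log2 fold change of −6.09 ± 0.32 (adjusted p = 6.7e-09). Rgs13, a regulator of G protein signalling that restrains mast cell degranulation, ranged over 0.685 to 7.83 CPM in B7hi and 83.3 to 219 CPM in B7low (−5.24, adjusted p = 2.5e-06). The carboxypeptidase Cpa3 stood at 5673, 4699, 8224, 6480.2 and 5848 CPM in B7hi and 26631, 14645, 19072, 14350.2 and 12429 CPM in B7low. Its log2 fold change was smaller, at −1.49 ± 0.23 (adjusted p = 5.8e-04), and the ranges did not overlap. Syk, the kinase downstream of the IgE receptor, was also lower (−1.17, adjusted p = 9.9e-04), at 43.1 to 80.005 CPM in B7hi and 119 to 156 CPM in B7low. Il1rl1, the receptor for the alarmin IL-33, was lower by a similar amount (−1.21, adjusted p = 0.0063). Fcer1a, the IgE-binding chain, did not pass over both challenges (−0.96 ± 0.31, adjusted p = 0.078), with log2 fold changes of −1.85 with saline (adjusted p = 0.0071) and −0.38 with HDM (adjusted p = 0.66). Its B7hi libraries were at 839, 661, 2971, 1339 and 1459 CPM, while B7low stood at 2972, 2445, 2383, 3225 and 1917 CPM. The test of a difference between the challenges did not pass for Fcer1a with edgeR, as for every tested gene. The progenitor marker Cd34 (0.56, adjusted p = 0.095) and the proliferation marker Mki67 (0.85, adjusted p = 0.20) did not pass.

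Genes of heparin synthesis, the sulfated polysaccharide that packs granule proteases, were among the lower ones. Of 34 tested genes of heparin and proteoglycan synthesis, 6 were lower (17.6%) and 1 higher (2.94%), with a median log2 fold change near 0 (0.02). The shares of all tested genes were 5.11% lower and 3.69% higher. Hs3st3a1 and Hs3st3b1 encode 3-O-sulfotransferases that finish heparan sulfate chains. Hs3st3a1 had 1 count in B7hi and was 157-fold (interval 27.6 to 6258) lower, with 22.7, 26.8, 21.7, 18.9 and 26.5 CPM in B7low. Hs3st3b1 ranged over 2.05 to 12.1 CPM in B7hi and 38.4 to 121 CPM in B7low (−3.48, adjusted p = 4.9e-05). Ext1, which extends the chain, was at 14.1 to 18.8 CPM in B7hi and 41.6 to 89.2 CPM in B7low (−1.92, adjusted p = 2.4e-04). Ndst2, the sulfotransferase that connective tissue mast cells need for heparin, stood at 133, 157, 238, 235 and 173 CPM in B7hi and 533, 448, 361, 408 and 523 CPM in B7low (−1.31, adjusted p = 4.8e-04), with no overlap. Of 17 tested eicosanoid synthesis genes, 3 were lower (17.6%) and 0 higher. The 3 became 0 without B7low HDM 1 and 1 without B7hi HDM 3, B7hi saline 1, B7low saline 1 or B7low saline 2. Hpgd, which inactivates prostaglandins, was the first of them (−4.20, adjusted p = 0.0096), but 78.6 CPM in B7low HDM 1 stood far above its 1.67 to 20.2 CPM in the other B7low libraries, and without that library its adjusted p was 0.088. That library also had the highest B cell and endothelial marker sums, and their part in this value was not tested.

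Lysosome and granule genes gave lower calls. Of 78 tested granule exocytosis and membrane traffic genes, 10 were lower (12.8%) and 2 higher (2.56%), with a median of −0.15, and 6 were lower without B7hi saline 1. The shares of all tested genes were 5.11% lower and 3.69% higher. Psap, the precursor of saposins, was at 48.4 to 70.004 CPM in B7hi and 136 to 213 CPM in B7low (−1.57, adjusted p = 8.6e-05). Lyst, which controls lysosome size, was at 7.500 to 29.2 CPM in B7hi and 38.4 to 75.9 CPM in B7low (−1.84, adjusted p = 0.0015). The protease gene Ctsd differed by −1.04 ± 0.21 (adjusted p = 0.0054) with overlapping ranges. Lamp1, a lysosomal membrane protein, passed over both challenges (−1.64, adjusted p = 0.017) and within neither alone. It was named, like other genes outside the rule in the methods text, after its value was seen. The promoters of Lamp1 and Ctsd are shown because of 8 lower granule genes with a RefSeq promoter (GRCm38.p6) they alone held CACGTG, the core letters of the element through which TFEB and MITF bind lysosomal genes. Both strands read alike for this palindrome. The 250 bases before the annotated start are printed, with the motif in capitals.
Lamp1, chr8:13158911-13159160, plus strand: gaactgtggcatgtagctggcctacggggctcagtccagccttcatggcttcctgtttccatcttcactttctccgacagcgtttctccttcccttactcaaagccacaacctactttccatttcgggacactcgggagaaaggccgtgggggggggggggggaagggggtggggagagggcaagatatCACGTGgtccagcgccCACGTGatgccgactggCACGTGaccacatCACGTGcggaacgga
Ctsd, chr7:142387828-142388077, minus strand: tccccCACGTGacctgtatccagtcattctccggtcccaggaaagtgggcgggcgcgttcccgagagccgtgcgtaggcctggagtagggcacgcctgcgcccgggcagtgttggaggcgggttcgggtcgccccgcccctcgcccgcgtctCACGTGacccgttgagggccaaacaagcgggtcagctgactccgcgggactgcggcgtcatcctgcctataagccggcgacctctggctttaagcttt
Lamp1 held the motif at 4 places and Ctsd at 2. Over all 8052 tested genes with a promoter, 10.1% held it at any listed start, as did 15.97% of the higher genes and 9.87% of the lower ones. A match describes the letters of a promoter and shows no binding.

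Adhesion and signalling receptors were called in both directions. Of 54 tested adhesion genes, 4 were higher (7.41%) and 9 lower (16.7%), against 3.69% and 5.11% of all tested genes. Gpm6a, a neuronal membrane glycoprotein, had 1 count in B7hi and was 268-fold (interval 47.6 to 10645) lower. Cadm1, which ties mast cells to nerves and fibroblasts, was at 0 to 5.87 CPM in B7hi and 46.8 to 133 CPM in B7low (−5.54, adjusted p = 3.7e-06). Ncam1 was at 2.05 to 11.7 CPM in B7hi and 40.3 to 85.4 CPM in B7low (−3.99), and the inhibitory sialic acid receptor Cd33 at 12.3 to 31.3 CPM in B7hi and 78.1 to 138 CPM in B7low (−2.37), each without overlap. The integrin chains Itga9 (−3.18, adjusted p = 4.9e-05) and Itgb1 (−1.10, adjusted p = 0.0072), which pair with each other, and the tetraspanin Cd81 (−1.35, adjusted p = 0.0020) were lower as well. Of 52 tested cytokine and growth factor receptors, 4 were higher (7.69%) and 9 lower (17.3%), the latter 5 without B7hi saline 1 or B7low saline 1. Il10rb, a shared chain of the IL-10 and IL-22 receptors, was at 30.99, 36.5, 36.9, 33.3 and 30.8 CPM in B7hi and 166, 174, 119, 124 and 103 CPM in B7low. The B7hi libraries lay within a narrow band, and the log2 fold change was −1.999 ± 0.20 (adjusted p = 8.9e-06). Tnfrsf21, a death-domain receptor, was at 21.9 to 36.5 CPM in B7hi and 85.3 to 171 CPM in B7low (−2.24, adjusted p = 2.4e-05). Of 29 tested chemokine and lipid mediator receptors, 4 were lower (13.8%). These were the complement receptor C3ar1 (−3.09), the sphingosine phosphate receptor S1pr3 (−2.44), Ccrl2 (−0.94), a chemerin-binding receptor, and the prostaglandin E receptor Ptger3 (−1.31), with adjusted p-values of 0.0013, 0.0051, 0.012 and 0.014. Ptger3 passed in the joint fit alone and was lost without B7low saline 1 (adjusted p = 0.078), and Ccrl2 was lost without B7low saline 2 and B7hi HDM 2 together (0.057). The 2 higher members (6.9%) were Ltb4r1, given above, and Ccr1. Bmp2, a growth factor of the TGF-β family, was at 11.3, 3.13, 0, 1.96 and 0.685 CPM in B7hi and 157, 45.1, 224, 52.7 and 46.1 CPM in B7low (−5.04, adjusted p = 0.0068).

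Transcription factors and signalling genes gave further lower calls. Of 45 tested transcription factors of the myeloid and mast cell lineages, 3 were higher (6.67%) and 6 lower (13.3%), with a median of 0.03. The shares of all tested genes were 3.69% higher and 5.11% lower. The 3 became 1 without B7hi HDM 3, B7hi saline 1, B7low HDM 1 or B7low saline 1 and 5 without B7low HDM 3. The homeobox gene Meis2 was at 0.756, 0, 0.625, 11.7 and 0 CPM in B7hi and 182, 93.6, 122, 93.01 and 89.1 CPM in B7low (−6.38, adjusted p = 1.5e-04), and its relative Meis1 differed the other way (1.18, adjusted p = 0.0043). Tox2 was 46.05-fold (interval 12.3 to 388) lower. Lyl1, a helix-loop-helix factor of blood progenitors, was at 9.82 to 23.8 CPM in B7hi and 36.8 to 65.7 CPM in B7low (−1.68, adjusted p = 0.0015), and Myb at 36.9 to 61.97 CPM in B7hi and 74.8 to 136 CPM in B7low (−1.21, adjusted p = 0.0020). Of 26 tested WNT pathway genes, 7 were lower (26.9%) and 1 higher (3.85%), and 3 were lower without B7hi saline 1, B7hi saline 2 or B7low saline 1. Nkd1, an inhibitor induced by the pathway (chromosome 8, 88521354 to 88594884, plus strand), was at 0, 0, 1.88, 1.96 and 0 CPM in B7hi and 154, 105, 121, 100.2 and 61.3 CPM in B7low (−7.27, adjusted p = 6.4e-07). The receptor tyrosine kinase gene Ror1 was 25.7-fold (interval 8.37 to 128) lower, and the WNT receptor Fzd7 differed by −2.74 ± 0.59 (adjusted p = 0.0075).

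Of 44 tested immediate early genes, 18 were lower (40.9%) and 1 higher (Ier3, 2.27%), with a median of −0.62. The shares of all tested genes were 5.11% lower and 3.69% higher. Immediate early genes are transcribed within minutes of a stimulus or of cell handling. Jun (chromosome 4, 95049034 to 95052222, minus strand) was at 663, 1327, 1878, 1765 and 1344 CPM in B7hi and 8214, 5241, 6131, 4119.8 and 4331 CPM in B7low. The highest B7hi value lay below the lowest B7low value, with a log2 fold change of −2.03 ± 0.28 (adjusted p = 2.5e-04). Klf4 was at 3.42 to 7.83 CPM in B7hi and 21.5 to 61.9 CPM in B7low (−3.06, adjusted p = 1.1e-04), Rhob at 5.29 to 11.6 CPM in B7hi and 35.8 to 124 CPM in B7low (−2.70, adjusted p = 2.4e-04) and the kinase Sgk1 at 29.4 to 127 CPM in B7hi and 128 to 278 CPM in B7low (−1.50, adjusted p = 2.8e-04). Others were the AP-1 gene Fos (−2.35, adjusted p = 0.0016), the phosphatase Dusp1 (−1.98, adjusted p = 3.1e-04), the mRNA decay factor Zfp36 (−1.31, adjusted p = 0.0061) and Klf2, a regulator of leukocyte trafficking (−4.55, adjusted p = 4.4e-04). Leaving out 1 library gave 14 to 19 lower genes. Sorting and handling times are not in the labels, and their part in these values was not tested.

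Ion channel and lipid genes held a few of the smallest p-values. Of 56 tested ion channel and calcium signalling genes, 7 were lower (12.5%) and 3 higher (5.36%), against 5.11% and 3.69% of all tested genes. The 3 became 0 without B7low saline 1 and 1 without any other saline library. Kcnq1, a potassium channel (chromosome 7, 143106362 to 143427042, plus strand), was at 6.05, 0, 1.25, 0 and 0 CPM in B7hi and 171, 85.3, 90.8, 52.7 and 55.6 CPM in B7low (−5.94, adjusted p = 2.1e-05). Its accessory subunit Kcne3 was at 32.5, 26.1, 40.002, 39.1 and 27.4 CPM and 593, 331, 411, 245 and 171 CPM (−3.38, adjusted p = 5.4e-06). Both subunits were lower in B7hi with no overlap. The antisense RNA Kcnq1ot1 overlaps Kcnq1, and without the strand used in counting their reads cannot be told apart. Kcnq1ot1 was highest in B7hi HDM 2 (12133 CPM), where Kcnq1 had no count. Camk2d, a calcium-dependent kinase, was lower (−4.56, adjusted p = 8.7e-05). Ryr3, a calcium release channel, was at 0 to 3.91 CPM in B7hi and 18.98 to 63.5 CPM in B7low (−4.54, adjusted p = 4.6e-05). Of 60 tested sphingolipid and phospholipid genes, 9 were lower (15%) and 2 higher (3.33%). The 2 became 0 without B7hi saline 2, B7low HDM 1 or B7low saline 1 and 1 without 5 other libraries. St3gal5, which makes the ganglioside GM3, was at 0 to 7.83 CPM in B7hi and 90.4 to 236 CPM in B7low (−5.74, adjusted p = 3.8e-05). Pik3r6, a regulatory subunit of PI3Kγ, was at 3.65 to 6.80 CPM in B7hi and 33.8 to 83.9 CPM in B7low (−3.28, adjusted p = 2.5e-05). Sgpl1, which degrades sphingosine phosphate, was at 49.6 to 96.3 CPM in B7hi and 133 to 357 CPM in B7low (−1.62, adjusted p = 0.0012). Apoe, the lipid carrier apolipoprotein E (chromosome 7, 19696109 to 19699188, minus strand), was at 265, 236, 206, 176 and 129 CPM in B7hi and 3695, 1635, 2738, 1445 and 1569 CPM in B7low. Its log2 fold change was −3.46 ± 0.26 (adjusted p = 6.4e-07), and it was −3.41 with saline and −3.49 with HDM. It was the 1 lower gene of 57 in the cholesterol and fatty acid list (1.75%). Of 38 tested glycolysis and hypoxia genes, 7 were lower (18.4%) and 5 higher (13.2%). Slc16a1, a lactate transporter (−2.26, adjusted p = 4.6e-05), Slc2a1, a glucose transporter (−2.05, adjusted p = 0.0039), Eno2, an enolase (−2.46, adjusted p = 0.0027), and P4ha2, a collagen prolyl hydroxylase (−3.23, adjusted p = 5.0e-06), led the lower ones. The 5 higher genes fell to 2 or 3 without any library but B7hi HDM 1, B7hi HDM 2 and B7low HDM 2.

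The broadest difference of modest size was in the protein synthesis machinery. Of 81 tested cytosolic ribosomal protein genes, 65 were higher in B7hi (80.2%, against 3.69% of all genes) and 0 lower. Their median log2 fold change was 0.91, a 1.88-fold difference, and the 65 called genes lay between 0.62 and 1.36. The sign was positive for 79 of 81, and the exceptions, Rpl26 (−1.31) and Rps4l (−0.93), did not pass. The median was 0.99 with saline and 0.90 with HDM. Within saline 35 of the genes passed, within HDM 28, and 21 passed in the joint fit alone. The 65 became 55 to 70 when 1 library was left out and 64 to 72 under the other settings. Summed over the list, ribosomal proteins took 43622 to 55411 CPM in B7hi and 19076 to 35601 CPM in B7low, with no overlap. B7low HDM 2 was the highest of the B7low libraries. The ribosomal RNA precursor Rn45s took 19.7% to 26.3% of counts in B7hi and 21.9% to 28.9% in B7low, and did not differ past the threshold (−0.25 ± 0.18, adjusted p = 0.46). The nuclear RNA Neat1 was lower in B7hi (−0.88 ± 0.19, adjusted p = 0.0064). The part of RNA quality or depth in the ribosomal protein difference was not tested.

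Rpl23a had the smallest p of the list (chromosome 11, 78180932 to 78183584, minus strand). It stood at 823, 759, 894, 824 and 768 CPM in B7hi and 341, 395, 423, 414 and 343 CPM in B7low, a log2 fold change of 1.09 ± 0.16 (adjusted p = 2.8e-04) that was 1.10 with saline and 1.08 with HDM. The lowest B7hi library was at 759 CPM and the highest B7low library at 423 CPM. Rps24 was at 557 to 846 CPM in B7hi and 282 to 408 CPM in B7low (1.10, adjusted p = 4.7e-04) and Rpl17 at 568 to 738 CPM in B7hi and 184 to 395 CPM in B7low (1.15, adjusted p = 4.4e-04). Ribosomal proteins also made up 7 of the 12 modest higher genes with the smallest p among those called in neither challenge alone. Among all 195 higher genes called in neither challenge alone, they were 21 (10.8%). Rpl21, the first of them, was at 973, 826, 934, 839.6 and 926 CPM in B7hi and 542, 418, 509.6, 589 and 379 CPM in B7low. Its log2 fold change was 0.88 ± 0.17 (adjusted p = 0.0035), where the challenges alone gave 0.91 with saline (adjusted p = 0.065) and 0.87 with HDM (adjusted p = 0.051). Rpl5, which binds the 5S ribosomal RNA, was at 1518, 1624, 2171, 2024 and 1866 CPM and 684, 1105, 1026, 1285 and 1033 CPM (0.84, adjusted p = 0.0057). Rps6, the ribosomal protein phosphorylated downstream of mTORC1, was at 1217, 1291, 1550.1, 1440.5 and 1501 CPM in B7hi and 407, 768, 605, 1073 and 741 CPM in B7low (0.97, adjusted p = 0.0062). Rps26, Rpl36a, Rpl9 and Rps15 differed by 1.16, 1.10, 0.87 and 0.80, with adjusted p-values of 0.0043, 0.0044, 0.0057 and 0.0067. For all 7 the populations did not overlap, as for 113 of the 168 modest higher genes from which p chose the 12. The choice was made on the same values, so nothing is read from this gap. Ribosomal protein genes have many processed pseudogenes, so reads of 25 nt may have been lost or shared among copies in all libraries.

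Ribosomal protein mRNAs are known to begin with a 5′ terminal oligopyrimidine tract, a C followed by pyrimidines, which lets mTORC1 signalling set their translation as a group. RefSeq starts (GRCm38.p6) were searched for C at the first transcribed base opening a run of at least 5 C or T. Of 8052 tested genes with a promoter entry, 2.89% had such a start, against 21.7% of 60 ribosomal protein genes, 6.597% of the 288 higher genes and 3.75% of the 240 higher genes that were not ribosomal proteins. Among the lower genes the share was 2.03%. These starts are shown for 5 called ribosomal proteins and for Fau, a called gene of the translation list whose product is split into a ubiquitin-like protein and a ribosomal protein, from 15 bases before the start to 15 within the transcript, with the pyrimidine run in capitals.
Rps6, chr4:86857353-86857382, minus strand: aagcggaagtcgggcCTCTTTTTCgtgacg
Rpl15, chr14:18270972-18271001, minus strand: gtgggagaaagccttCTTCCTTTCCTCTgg
Rpl35, chr2:39005117-39005146, minus strand: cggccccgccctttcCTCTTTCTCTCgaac
Rpl28, chr7:4792950-4792979, plus strand: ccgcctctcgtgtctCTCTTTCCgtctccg
Rps18, chr17:33955651-33955680, minus strand: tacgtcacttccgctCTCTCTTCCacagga
Fau, chr19:6057932-6057961, plus strand: tgcgcgcccccacttCTTCCTCTTTCTTga
The runs differ in length and letters while each opens with C and T at the annotated start. Called ribosomal proteins without the tract at a listed start were the majority, since 10 of 48 with an entry had it. A start annotated a few bases away would not be counted.

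Translation factors were higher too. Of 63 tested, 23 were higher (36.5%) and 1 lower (1.59%), against 3.69% and 5.11% of all tested genes, with a median of 0.47. Of these 24, 12 passed in the joint fit alone, and 15 were higher without B7hi HDM 3 or B7low HDM 1. Summed, they took 20470 to 24342 CPM in B7hi and 12442 to 16411 CPM in B7low. Gnb2l1, the ribosomal scaffold RACK1, was at 1222, 1308, 1609, 1221 and 1414 CPM in B7hi and 393, 449.8, 530.0, 965 and 700.1 CPM in B7low (1.20, adjusted p = 0.0011). Pabpc1, the poly(A)-binding protein, was at 753 to 1009 CPM in B7hi and 346 to 494 CPM in B7low (1.00, adjusted p = 0.0012). The elongation factors Eef2 and Eef1a1 carry the ribosome along the message and bring it charged tRNA. Eef2 differed by 0.97 ± 0.17 (adjusted p = 0.0016), and Eef1a1 by 0.77 ± 0.16 (adjusted p = 0.0062) with 3390.3, 3371, 4093, 3558 and 3751 CPM in B7hi and 1741, 2027, 1929, 2606 and 2385 CPM in B7low. Eef1a1 was called in neither challenge alone. Subunits of eIF3, which readies the small ribosomal subunit for initiation, were among the higher genes, for example Eif3h (0.94, adjusted p = 0.0020), Eif3e (0.84, adjusted p = 0.0026) and Eif3m (0.99, adjusted p = 0.0061). The 1 lower member was Eif4a2, an RNA helicase (−0.65, adjusted p = 0.035). Called in the joint fit and in neither challenge alone were 21 of 81 tested ribosomal proteins and 12 of 63 translation factors. The share of all tested genes was 3.68%. Together the lists held 33 of the 388 such genes.

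**Figure D4:**
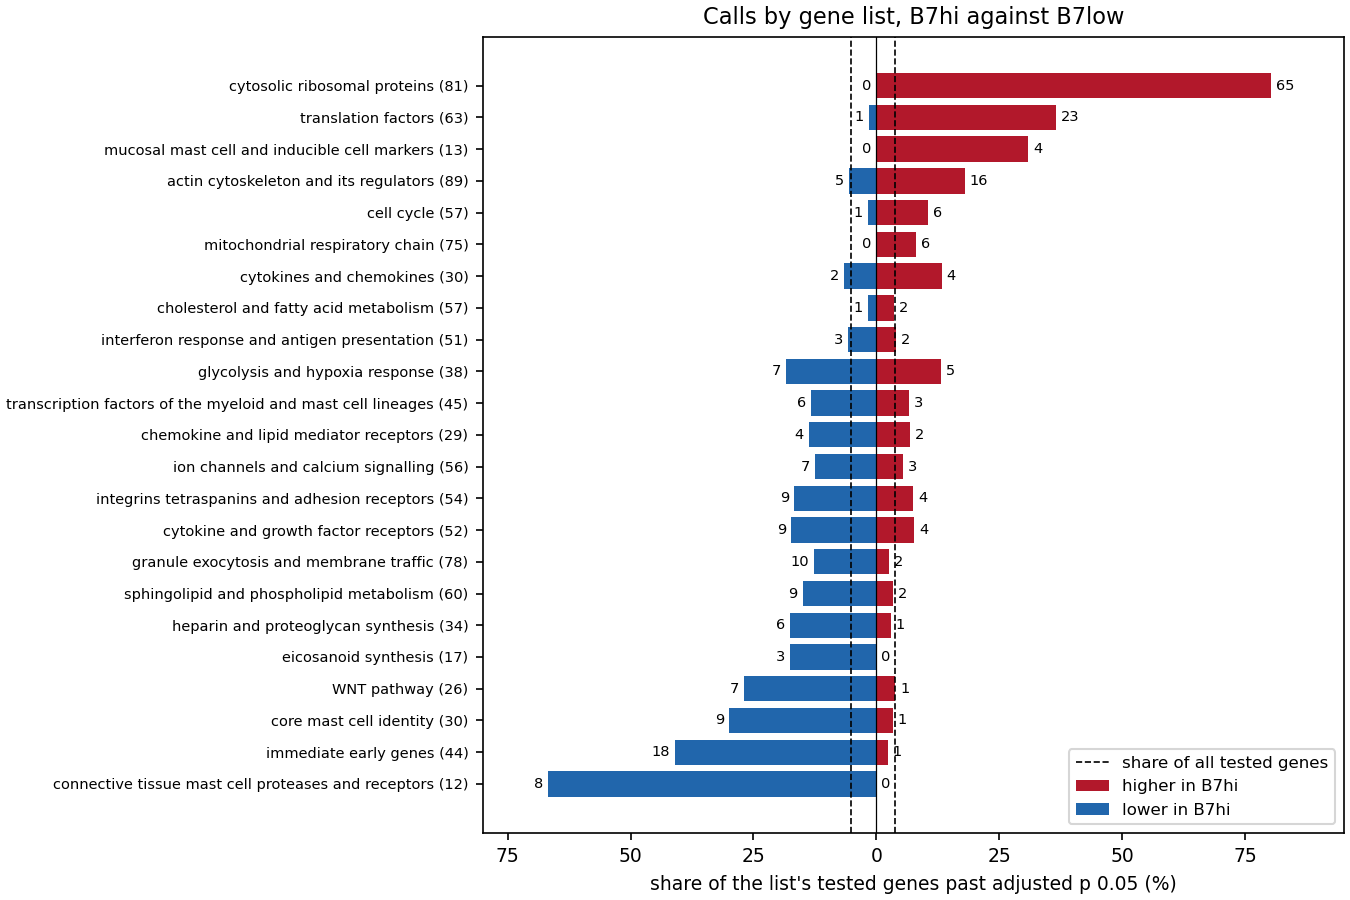
Share of the tested genes of each list called higher (red) or lower (blue) in B7hi over both challenges, beside the shares of all tested genes (3.69% and 5.11%). Ribosomal proteins reach 80.2% higher, and the connective tissue list 66.7% lower.

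The remaining modest higher genes named by their p had other roles. Deptor, an inhibitory partner of mTOR (chromosome 15, 55112317 to 55259271, plus strand), was at 154, 152, 161, 170.3 and 97.9 CPM in B7hi and 45.5, 70.2, 43.4, 55.3 and 103 CPM in B7low. Its log2 fold change was 1.19 ± 0.25 (adjusted p = 0.0067), although B7hi HDM 3 lay below B7low HDM 3. Hat1, a histone acetyltransferase of new histones, was at 181, 130.0, 153, 123 and 121 CPM and 90.9, 73.6, 69.1, 80.002 and 59.4 CPM (0.93, adjusted p = 0.0051). The histone variant gene H2afz was at 800.5 to 1162 CPM in B7hi and 439.8 to 725 CPM in B7low (0.85, adjusted p = 0.0068), and the RNA-binding protein gene Mbnl3 at 46.9 to 82.5 CPM in B7hi and 6.99 to 32.5 CPM in B7low (1.50, adjusted p = 0.0070). H2afz also belongs to the cell cycle list. Of its 57 tested genes, 6 were higher and 1 lower (10.5% and 1.75%), against 3.69% and 5.11% of all tested genes. A positive fold change was seen for 54, and the median was 1.00. Stmn1, which destabilizes microtubules, was at 67.5 to 129 CPM in B7hi and 12.2 to 52.03 CPM in B7low (1.62, adjusted p = 0.0042), and the DNA ligase Lig1 at 29.5 to 64.4 CPM in B7hi and 10.03 to 29.3 CPM in B7low (1.55, adjusted p = 0.0078). The lower gene was Ccnd1, cyclin D1, at 6.80 to 8.90 CPM in B7hi and 19.2 to 32.9 CPM in B7low (−1.55, adjusted p = 0.011). The 6 became 13 without B7low HDM 2 and 3 without B7hi HDM 3, B7low saline 1 or B7low saline 2. Nuclear genes of the mitochondrial respiratory chain had a positive fold change for 71 of 75, with a median of 0.49, but 6 passed (8.0%) and this count ran from 1 without B7hi saline 1 to 13 without B7low HDM 2, with 2 or 3 without any other library but B7hi HDM 1 and B7hi HDM 2. Ndufa10, a complex I subunit, differed by 1.09 ± 0.26 (adjusted p = 0.016) with overlapping ranges.

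Actin and its partners gave higher calls, mostly of a modest size, and a few large lower ones. Of 89 tested genes of the actin cytoskeleton and of the small GTPases that regulate it, 16 were higher and 5 lower (5.62%), with a median of 0.23. Actg1, cytoplasmic γ-actin, differed by 0.98 ± 0.20 (adjusted p = 0.0050), Lcp1, a leukocyte actin bundler, by 0.75 ± 0.17 (adjusted p = 0.0096), and Tmsb10, an actin monomer binding peptide, by 1.18 ± 0.28 (adjusted p = 0.014). These 3 were named after their values were seen. The higher count was 5 to 7 without B7hi HDM 3, B7low HDM 1 or any saline library, and 6 without B7low saline 2 and B7hi HDM 2 together. Lower members included the GTPase regulators Stard13, given above, and Arhgef10l, an exchange factor, at 3.02, 8.35, 21.3, 3.91 and 9.59 CPM in B7hi and 157, 56.9, 85.4, 105 and 99.2 CPM in B7low (−3.36, adjusted p = 1.0e-04). Tiam1, an exchange factor for RAC, was lower in the joint fit alone (−1.13 ± 0.26, adjusted p = 0.011), at 23.5 to 31.7 CPM in B7hi and 32.5 to 75.2 CPM in B7low.

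Modest lower genes were spread over traffic and signalling. Ctso, a lysosomal cysteine protease, was at 33.3, 40.7, 48.8, 52.8 and 39.04 CPM in B7hi and 80.4, 80.3, 78.6, 90.4 and 87.2 CPM in B7low. The B7low libraries lay close together, and the log2 fold change was −0.97 ± 0.20 (adjusted p = 0.0054), against −1.11 with saline (adjusted p = 0.053) and −0.88 with HDM (adjusted p = 0.093) alone. Mtmr6, a phosphoinositide phosphatase, was at 111 to 137 CPM in B7hi and 170.0 to 302 CPM in B7low (−0.90, adjusted p = 0.0057). Myo5a, the myosin that carries granules along actin, was at 43.1, 36.5, 36.9, 39.1 and 30.8 CPM and 114, 78.6, 108, 63.7 and 53.7 CPM (−1.15, adjusted p = 0.0061). Snx2, a sorting nexin of the retromer, was at 61.9 to 76.2 CPM in B7hi and 100.3 to 184 CPM in B7low (−0.96, adjusted p = 0.0066). Asph, an aspartate hydroxylase of the endoplasmic reticulum, was at 276 to 404 CPM in B7hi and 467 to 888 CPM in B7low (−0.93, adjusted p = 0.0061). Mob3c, Bod1l and Pdxk, the last a kinase of vitamin B6, differed by −0.89, −0.85 and −1.12, with adjusted p-values of 0.0066, 0.0089 and 0.0096. Wdfy3, which brings protein aggregates to autophagy, Serpinb1a, an inhibitor of granule serine proteases, and Kidins220, a scaffold of neurotrophin receptors, were the 3 of the 12 that lost a call when a library was left out. Their log2 fold changes were −1.06, −0.87 and −0.77. Wdfy3 and Serpinb1a lost their calls without B7low saline 1 and Kidins220 without B7hi saline 2, each at an adjusted p of 0.050 to 0.051. Serpinb1a stood at 1160.1, 754, 886, 816 and 644 CPM in B7hi and 2423, 1324, 1420.5, 1272 and 1397 CPM in B7low.

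**Figure D5:**
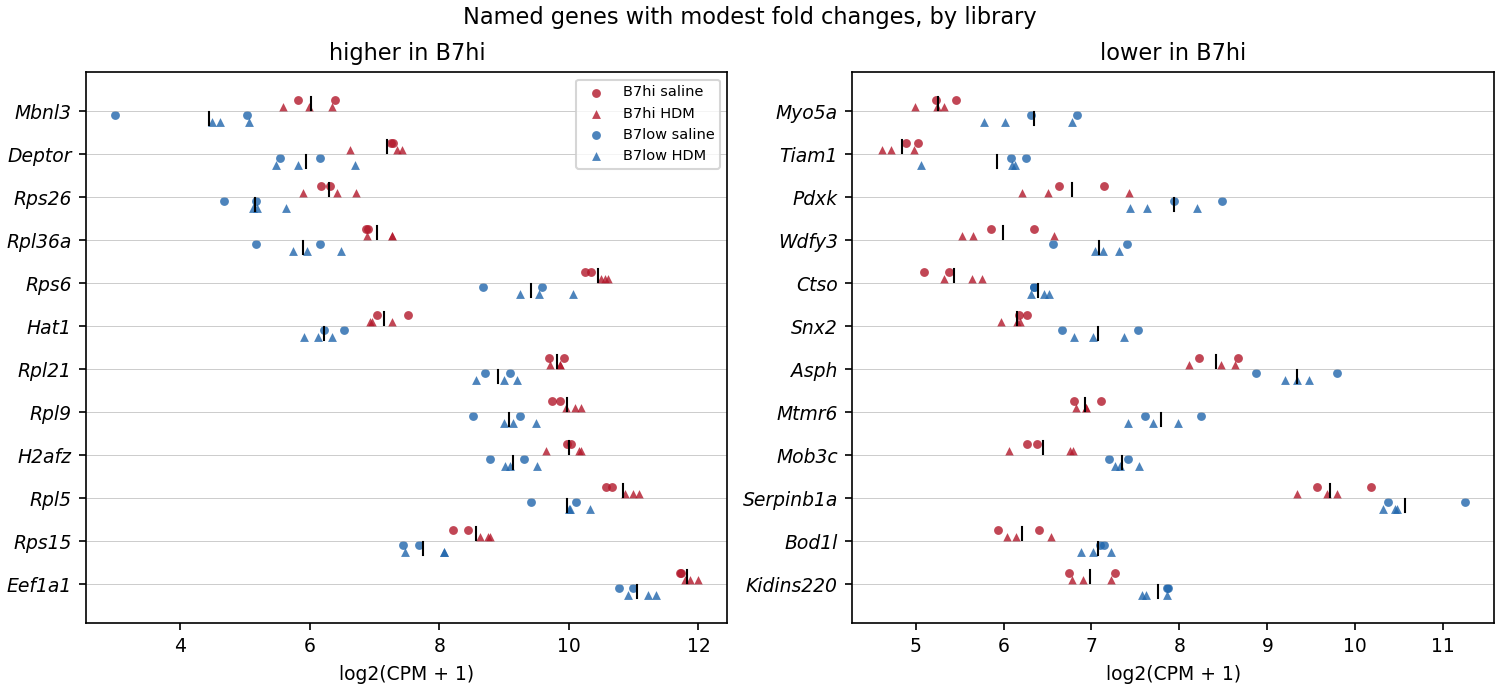
Levels of the 24 named genes of modest size, as log2(CPM + 1) in each of the 10 libraries, with circles for saline, triangles for HDM, red for B7hi, blue for B7low and a black bar at each population's mean. Each ribosomal protein shown separates the populations without overlap, and Deptor and Wdfy3 are the genes in which they overlap. The genes were chosen by p on the same values, so nothing is read from the gap.

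Of 51 tested interferon response and antigen presentation genes, 2 were higher (3.92%) and 3 lower (5.88%), near the 3.69% and 5.11% of all tested genes. The 2 higher became 4 without B7hi HDM 1. The 3 lower became 0 without B7hi saline 2 or with the replicate number as a block, and 1 without B7hi HDM 1, B7hi HDM 2, B7hi saline 1, B7low HDM 2 or B7low saline 2. Ly6e, a surface protein induced by interferon, was at 747, 712, 990.1, 799 and 990.4 CPM in B7hi and 278, 309, 530.0, 641 and 559 CPM in B7low (0.93, adjusted p = 0.0027). Ifitm2, an antiviral membrane protein, was at 274 to 562 CPM in B7hi and 85.4 to 239 CPM in B7low (1.29, adjusted p = 0.0059). Among 30 tested cytokines and chemokines, 4 were higher (13.3%) and 2 lower (6.67%), against the same 3.69% and 5.11%. Leaving out any 1 library left 1 to 3 higher, with 1 without B7low HDM 2 or B7low saline 1 and 2 without B7hi HDM 3, B7hi saline 1, B7hi saline 2 or B7low saline 2. The 2 lower became 4 without B7hi HDM 1 and 1 without B7hi HDM 3 or any saline library. Tnfsf10, the death ligand TRAIL, was at 101, 109.6, 133, 131 and 146 CPM in B7hi and 55.95, 76.9, 66.4, 64.4 and 91.6 CPM in B7low, a modest difference resolved by the joint fit alone (0.80 ± 0.19, adjusted p = 0.014). Of the 48 genes named for the largest or for modest differences, 42 kept their call under every setting tried, 21 of each 24, and 0 of the 166 named genes reversed its direction when called. The 48 were chosen by size or p on the same libraries, so this count is partly fixed by the choice. Of all 927 calls, 556 (without B7hi saline 1) to 771 (without B7low HDM 2) were shared when 1 library was left out.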

How the data were processed

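Bulk RNA-seq was made from sorted mast cells by a SmartSeq2 protocol with paired reads of 25 nt, per the labels' protocols. The authors deposited raw read counts, with 1 whole number per library for each of 22815 gene symbols, of which 3029 had no count. TopHat2 2.0.10, Cufflinks 2.2.1, DESeq2 and the build mm10 are named in the submitters' processing notes with no role. For the counter, its gene models and its strand setting, the sources used here give nothing, so antisense or near-identical genes may share reads.

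Counts were scaled by TMM and tested with edgeR 4.0.16 (R 4.3.3, quasi-likelihood, robust, two-sided) on the 10533 genes that passed filterByExpr over the 4 groups, which held 98.2% to 99.5% of each library's counts. The model had terms for challenge and population, with Benjamini-Hochberg adjustment over all genes and a threshold of 0.05. A second fit with 1 mean per group gave the effects within a challenge and their difference. The joint fit weights the 3 HDM libraries per population more than the 2 saline ones. SE, after ±, divides a log2 fold change by the root of its F statistic, and is approximate. The common biological coefficient of variation was 0.377. The script was tested on simulated data. Pairs of libraries within a group differed by 6.54 to 11.0 in chi-square per degree of freedom, so none was taken for a repeat.

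Genes named are, per direction, the 12 largest called differences with at least 20 CPM in the higher population and no overlap, the 12 smallest p-values among sizes up to 1.5 called in neither challenge alone, up to 4 per list, and a fixed set. The comparison, members and 34 lists (11 of markers) were chosen with earlier results of these data known, so lists are described by counts and medians and not tested. Any gene named outside this rule was chosen after its values were seen. The alternatives were DESeq2 1.42.0, limma-voom (limma 3.58.1), other scalings, filters and designs, and leaving libraries out. Coordinates are GENCODE M21 (GRCm38), 1-based; promoters are RefSeq entries, several per gene where listed. GENCODE matched 164 of 166 named genes. Some genes chosen by this rule are left unreported.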

Additional observations from a re-analysis of the deposited data

Results flagged for a closer look

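In each population of 5 libraries, which mixes both challenges, the highest and lowest library were compared with the rest for 58 of the named genes, 116 groups in all. In 10 of them 1 library stood apart by Dixon's test at the 95% level. The test assumes normally spread values from 1 condition, so the 10 cannot be set against a chance rate. A gene with 1 count in all over a population, as C2, Gpm6a, Stk32b and Hs3st3a1 had in B7hi, is always flagged. Deptor was at 97.9 CPM in B7hi HDM 3, against 152 to 170.3 CPM in the other B7hi libraries. Tiam1 was at 32.5 CPM in B7low HDM 2, against 66.9 to 75.2 CPM in the others. Serpinb1a was at 2423 CPM in B7low saline 1, against 1272 to 1420.5 CPM. Lsamp was at 78.6 CPM in B7low saline 2, against 10.1 to 29.8 CPM. The other 6 were genes near 0 in B7hi. In B7hi HDM 2, Stard13, Gpm6a and Hs3st3a1 each stood at 1.96 CPM, below the level of 3 counts in that library, and Meis2 at 11.7 CPM. C2 was at 0.625 CPM in B7hi HDM 1 and Stk32b at 0.522 CPM in B7hi saline 2, where the other B7hi libraries had no count. B7hi HDM 2 had the lowest total, 525983 counts.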

How the results depend on the processing

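The higher count was 611 with equal weight for the challenges, a setting that also changed the model to the fit with 1 mean per group. It was 605 with no count filter, 244 without B7low saline 2 and B7hi HDM 2, and 203 to 385 with 1 library left out. The lower count ran from 366 to 569 and the count called in neither challenge alone from 225 to 421 with 1 library left out. The count of genes whose effect differed between challenges was 0, but 3 with a filter of 5 CPM in 2 libraries, 44 with DESeq2, 2 with library size alone, 143 with no filter, 1 without B7low saline 2 and B7hi HDM 2, and 0 to 3 with 1 library left out. The causes were not tested beyond the fewer libraries of some settings. Other settings kept these counts within 1.5 times, with DESeq2 at 521 higher and 774 lower. With no filter 666 genes were lower. Scaling by library size alone moved the median log2 fold change of all genes from 0.02 to 0.11, and calls became 414 higher and 451 lower. With the replicate number as a block, 338 genes were higher, 483 lower, 325 called in neither challenge alone and 0 differed between challenges, and 747 of the 927 calls were shared. Same-numbered libraries did not deviate together (correlations of −0.112 to 0.041), so the number was not taken to pair them. Of 45 list counts above 0, 29 moved by over 1.5 times with 1 library left out, 18 of them counts of up to 3. Of 129 called named genes, 104 kept their call under every setting. Most named genes were chosen by size or p on these libraries, so this count does not describe all 927 calls. At 525983 counts in the smallest library, 3 counts are 5.70 CPM.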

Other observations

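Further members of the lists were called, and the genes of this paragraph were chosen after their values were seen. Glycolysis and hypoxia genes were called in both directions. Egln3, an oxygen-sensing prolyl hydroxylase, was 27.3-fold (interval 7.30 to 229.8) higher in B7hi, and Hk2, a hexokinase, was higher in the joint fit alone (1.37, adjusted p = 0.016). The kinase Pdk1, which limits the entry of pyruvate into mitochondrial oxidation, was lower (−2.34, adjusted p = 0.022). Sgms2, a sphingomyelin synthase (−2.34, adjusted p = 0.0088), Ormdl3, a regulator of sphingolipid synthesis (−1.21, adjusted p = 0.012), and Sptlc2, a subunit of the first enzyme of that route (−0.94, adjusted p = 0.0062), were lower. Receptor chains for interferons were called in opposite directions, with Ifnar2 lower (−1.04, adjusted p = 0.0063) and Ifngr1 higher (1.01, adjusted p = 0.012). The TGF-β receptors Tgfbr1 (−0.94, adjusted p = 0.015) and Tgfbr2 (−0.99, adjusted p = 0.022) were both lower. The calcium-permeable channel Trpv2 (1.59, adjusted p = 0.014) and the calcium-activated potassium channel Kcnn4 (1.81, adjusted p = 0.029) were higher, though the 3 higher channel genes became at most 1 without any saline library. The transcription factor Ahr, which senses aromatic ligands, was higher in the joint fit alone (1.14, adjusted p = 0.021), though the 3 higher factors of its list became 1 when B7hi HDM 3, B7hi saline 1, B7low HDM 1 or B7low saline 1 was left out.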
